A study of Mus musculus with 9 samples.

Results

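The s-shaped body was compared with the renal vesicle, the stage of the nephron that comes before it. The 6 arrays were chosen by their sample titles, 3 of the s-shaped body and 3 of the renal vesicle, out of 9 in the series; the other 3 were of the collecting duct and enter the normalization, the filter on dim signals, the choice of probe set and the estimate of the spread. All 3 structures were dissected by their shape from wild-type kidneys of strain 129 at stage E14.5 (Theiler stage 22), from embryos of unknown sex, and each sample was hybridised to 1 Affymetrix MOE430A array. Every renal vesicle and s-shaped body sample was a pool of 20 structures, while the collecting duct samples had a pool size of 1. RNA was extracted with TRIzol and amplified in 2 rounds, so each level is that of an amplified sample. The p-values measure the spread between such samples, the collecting duct samples included. Levels are log2 intensities after a pseudocount of 26 and quantile normalization; the lowest level this scale can give is 4.70, and the median probe set stood at 7.28. Differences are s-shaped body minus renal vesicle, and a gene is said to rise or fall where limma gave a Benjamini-Hochberg adjusted p under 0.05 over all genes tested.

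A nephron starts when mesenchyme capping the ureteric bud condenses, turns into epithelium under the control of Wnt4 and closes into a hollow ball, the renal vesicle. The vesicle then folds into the s-shaped body, whose proximal limb gives rise to podocytes and the capsule around them, and whose middle and distal limbs give rise to the tubule. Endothelial and mesangial precursors enter the cleft below the podocyte layer at this stage, and Notch signalling is needed for the proximal fates.

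Of 7998 genes tested, 2905 (36.3%) passed the threshold, with 1482 rises (18.5%) and 1423 falls (17.8%) from vesicle to s-shaped body. Arrays of the stages did not overlap for 52.9% of all genes. With the filter applied to the 6 arrays compared, 7521 genes were tested, 1479 higher and 1378 lower. A gene is said to have passed the filter only through 1 group where it would not have passed without that group's arrays. Such passage favours genes that are higher in that group. Of the 7998 genes, 478 passed only through the s-shaped body arrays, and 276 of these rose. Another 358 passed only through the renal vesicle arrays, and 146 of these fell. With no filter on 12393 genes 23.9% passed, 12.5% higher and 11.5% lower. For several lists touched by the filter, counts over all members on the array are also given from that fit. Counts of the other lists are those with the filter and can carry this limit. Large differences were more often rises: 273 genes rose and 104 fell over 4-fold, and 30 rose and 7 fell over 16-fold. The median difference of all genes tested was -0.03, and the median SD between pools was 0.19 in each stage. The median deposited intensity was 112.2 to 121.8 on renal vesicle arrays and 131.4 to 138.9 on s-shaped body arrays. Control probe sets at the 3' and 5' ends of Gapdh, whose ratio grows when transcripts are truncated, gave 11.95, 13.28 and 14.54 for the renal vesicle pools. For the s-shaped body pools they gave 24.38, 20.03 and 32.43, all higher, while the ratios of Actb overlapped. The part of truncation in the results below was not tested.

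**Figure D1:**
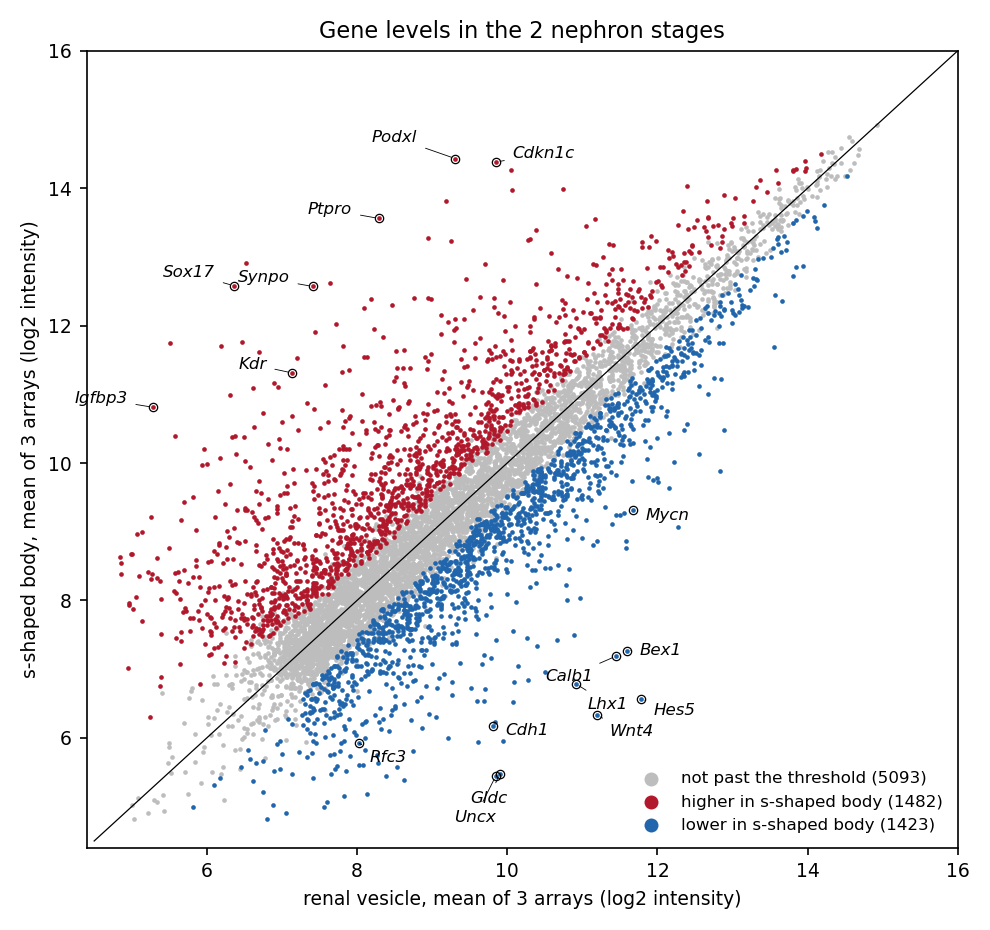
Mean log2 intensity of 7998 genes in the renal vesicle (x axis, 3 arrays) and in the s-shaped body (y axis, 3 arrays), with genes that rose in red, genes that fell in blue and the line of equal levels in black. Of the 1482 red points 273 lie over 4-fold from the line, and of the 1423 blue ones 104 do. Sox17, Podxl, Ptpro and Synpo lie above the line where Hes5, Wnt4, Gldc and Uncx lie below.

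The labels were set beside marker genes. These were chosen with earlier results of these data known, so they are not an independent check. Podxl and Nphs1, known from the proximal limb of the s-shaped body, were higher in all 3 of its arrays than in any renal vesicle array, and Wnt4, known from the renal vesicle, was higher in all 3 arrays of that stage. Lhx1, Jag1 and Cdh1, which are also known from the tubular limbs of the s-shaped body, were low there, as described below.

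Renal vesicle replicate 3 stood apart from its group. Across genes, which are not independent replicates, it correlated with the other renal vesicle arrays at 0.962 and 0.964, against 0.982 between those arrays. With the s-shaped body arrays it correlated at 0.862 to 0.868, and the others did so at 0.822 to 0.846. Its place between the stages was measured on 1528 genes that differed over 2-fold in a fit without it, from 0 at the mean of the other renal vesicle arrays to 1 at the s-shaped body mean. Its median position was 0.17, whereas replicates 1 and 2, measured the same way, lay at -0.05 and -0.01. The 0 point of replicates 1 and 2 includes replicate 3, so the positions do not share a baseline. Without it 2807 genes (35.1%) passed, 1458 (18.2%) higher and 1349 (16.9%) lower. Of these, 2590 also passed with it, all in the same direction. Genes named below that lost their call or whose fold moved over 1.5 times without this array are given both ways.

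Genes of nephron induction fell almost throughout. Of the 20 genes in this list, 18 had a probe set of their own and 14 passed the filter on dim signals, of which 12 fell and 1 rose, with a median of -2.18. Of the 14, 7 passed the filter only through the renal vesicle arrays; with no filter 13 of the 18 fell and 1 rose. Wnt4, the signal that turns the mesenchyme into epithelium, stood at 11.23, 11.21 and 11.12 in the 3 renal vesicle pools and at 5.61, 6.78 and 6.59 in the s-shaped bodies. Every s-shaped body level lay below the median probe set of an array, and Wnt4 fell 29-fold (log2 difference -4.86, SE 0.29, adjusted p = 3.27e-07). Lhx1, a LIM homeobox factor that the vesicle needs to become patterned, stood at 10.89, 11.06 and 10.77 and then at 6.75, 6.77 and 6.85. It fell 17.3-fold (adjusted p = 2.73e-07). Pax8, a paired-box factor of the nephron lineage, fell by a smaller amount (-1.46, SE 0.20) from 9.08 to 9.34 down to 7.58 to 7.97. Papss2, which makes the sulfate donor for sulfated matrix, and Greb1 fell by 3.56 and 3.16. Bmp7, a growth factor that keeps nephron progenitors alive, was the member that rose (1.45, SE 0.18), and Fgf9 did not pass at -0.19. The 2 probe sets of Bmp7 ranged from 0.71 to 1.45. Tmem100, below the filter, was listed at 6.46 to 7.40 and then at 4.79 to 5.41. The 12 falls and the 1 rise were the same in number without renal vesicle replicate 3, which lay at a median position of 0.02 for the 11 members measured.

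Notch pathway genes did not move one way. Of 26 genes, 24 had a probe set of their own and 21 were tested, of which 6 fell, 4 rose and 11 did not pass, with a median of -0.02. Of the 4 rises, 3 passed the filter only through the s-shaped body arrays. Of the 6 falls, 2 passed it only through the renal vesicle arrays. With no filter 6 of the 24 fell and 3 rose. The ligand genes Jag1 and Dll1, both known from the early nephron epithelium, fell 4.79-fold and 4.27-fold. Jag1 went from 8.98, 8.76 and 8.83 to 6.78, 6.58 and 6.42, and Dll1 from 10.29, 10.58 and 10.83 to 8.48, 8.48 and 8.46. Dll4, a ligand of vascular endothelium, rose by 1.23 (SE 0.26). Of the receptors, Notch4, which is mainly endothelial, rose by 2.10, and Notch3 did not pass at 0.53 (adjusted p = 0.115). Notch2, the receptor that proximal nephron fates depend on, has 2 probe sets that disagree. The brighter one fell by 0.94 and the dimmer one was higher by 0.88, so no direction is given for this gene. Among targets, Hey1 fell by 0.94 and Dtx1 by 1.55, and Hes1 was level at -0.04 (adjusted p = 0.913).

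Hes5, a direct target of Notch signalling, had the largest fall of all genes tested in the fit of all arrays. Without renal vesicle replicate 3 its difference was -5.16, and that of Calb1, described below, was larger at -5.70. It stood at 11.48, 11.97 and 11.89 in the renal vesicle and at 6.19, 6.57 and 6.95 in the s-shaped body, which is 37-fold lower (SE 0.23 on the log2 scale, adjusted p = 9.65e-08). The groups lay far apart on every array. Its dimmer probe set fell by 2.19. The 250 bases before its start (chr4:154960673-154960922, plus strand, RefSeq on GRCm38.p6) are shown because they hold 2 copies of TGGGAA or its reverse complement, the core of the motif bound by the Notch effector RBPJ, in capitals.
Hes5: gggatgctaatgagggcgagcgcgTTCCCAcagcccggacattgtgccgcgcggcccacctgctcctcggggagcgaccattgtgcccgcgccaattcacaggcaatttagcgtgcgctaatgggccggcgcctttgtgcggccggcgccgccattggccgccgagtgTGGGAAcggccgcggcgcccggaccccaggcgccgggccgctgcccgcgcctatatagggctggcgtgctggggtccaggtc
The copies start 226 and 82 bases before the transcript. A promoter of 300 bases, 250 before and 50 after the start, was found in the RefSeq table for 6504 of the 7998 genes, and 22.1% of these hold TGGGAA on either strand. Of 17 Notch pathway promoters 3 hold it, those of Hes5, Lfng and Rbpj. A match is a description of the letters and not evidence of binding.

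Wnt pathway genes fell more often than they rose. Of 35 genes 24 were tested, of which 10 fell, 2 rose and 12 did not pass, with a median of -0.24; without any one of renal vesicle replicates 1 and 2 and s-shaped body replicates 2 and 3, 1 rose. Besides Wnt4, the falls were of the secreted inhibitors Dkk1 (-2.52), Frzb (-2.28), Sfrp2 (-1.92) and Sfrp1 (-1.20), the receptor genes Fzd7 (-1.89) and Fzd3, the ligand Wnt11, the agonist Rspo1 and the feedback gene Axin2 (-1.09, SE 0.24). Dkk2, an inhibitor of the same family as Dkk1, went the other way, from 6.35, 6.99 and 6.26 to 9.85, 9.19 and 8.91, and rose 6.88-fold. The level of Wnt11, a signal of the ureteric bud tip, was 8.90 and 8.92 in renal vesicle replicates 1 and 2 but 7.75 in replicate 3, against 6.70 to 7.29 in the s-shaped bodies.

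In the FGF, BMP and TGF-beta list, 10 of 25 tested genes fell, 2 rose and 13 did not pass, with a median of -0.28. Bmp2 fell 9.41-fold, from 10.65, 10.83 and 10.49 to 7.87, 7.35 and 7.04. Id2, Id4 and Id1, transcriptional inhibitors induced by BMP, fell by 1.65, 1.22 and 0.76, and Id3 did not pass. The 3 probe sets of Id4 ranged from -2.06 to -0.43, and the 2 of Id2 from -1.65 to -0.99. Fgfr2, the receptor of the epithelium, fell by 1.22. Tgfbr2, the ligand-binding receptor of TGF-beta, rose 5.41-fold, from 8.84, 9.10 and 8.85 to 11.47, 11.30 and 11.33, and Tgfbr1, its partner, fell by 0.96.

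Genes of the cap mesenchyme, the progenitors of the nephron, were lower in the later stage in 7 of 11 tested cases and higher in 1. Of the 11, 3 passed the filter only through the renal vesicle arrays; with no filter 6 of 17 fell and 1 rose. Uncx, a homeobox gene, fell 21.1-fold, from 9.57, 10.22 and 9.76 to 5.76, 5.18 and 5.41. Six2, which keeps progenitors undifferentiated, was 8.25 to 8.55 in the renal vesicle and 7.37 to 8.19 in the s-shaped body, and its fall of 0.70 was near the threshold (adjusted p = 0.0327). Cited1, below the filter, was listed at 5.03 to 5.15 and 4.91 to 5.07. Wt1, shared with the podocyte list, was the member that rose. In the Hox list 10 of 18 tested genes fell and 1 rose, with a median of -0.74, but 6 fell without renal vesicle replicate 2 or s-shaped body replicate 2, and 2 rose without renal vesicle replicate 3. Hoxd10 fell by 1.44 (SE 0.21) and Hoxb5 by 1.29 (SE 0.25), and Hoxc8 was the gene that rose, by 1.23.

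**Figure D2:**
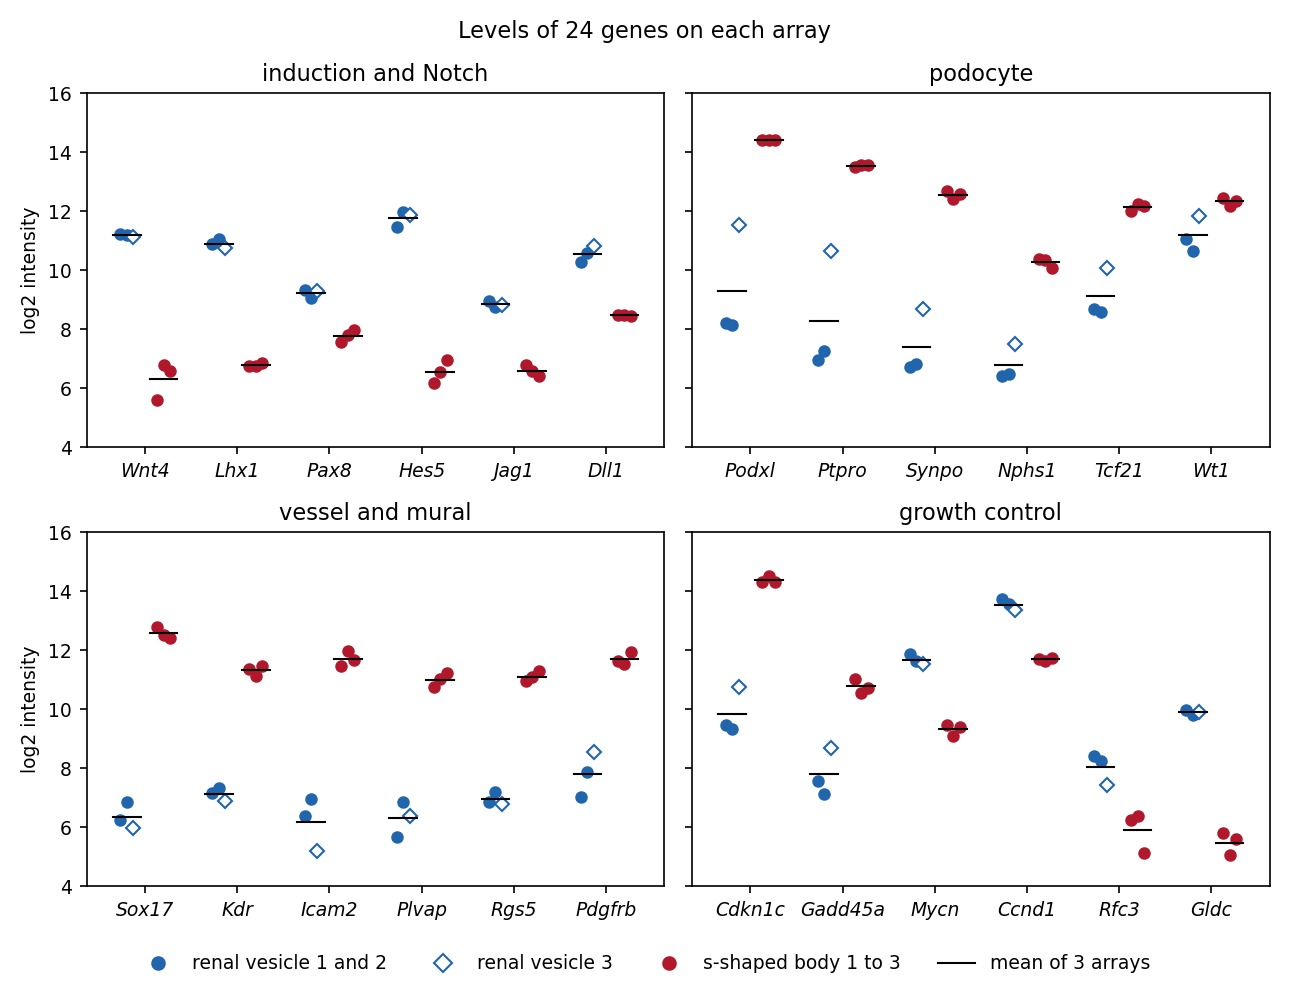
Log2 intensity of 24 genes on each array, with renal vesicle arrays in blue (replicate 3 as an open diamond), s-shaped body arrays in red and the mean of 3 arrays as a bar. Wnt4, Lhx1 and Hes5 are low in all s-shaped bodies; Podxl, Ptpro and Synpo are high there and intermediate in renal vesicle replicate 3, at 11.54, 10.65 and 8.68, while Sox17, Kdr and Icam2 are low in all 3 renal vesicle pools.

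Podocyte genes rose, most of all those of the surface and the foot process. Of 39 genes in the slit diaphragm and foot process list, 29 had a probe set of their own and 24 were tested. Of these 22 rose and 2, Ezr and Col4a3, did not pass, with a median of 1.86 against -0.03 over all genes. Of the 24, 4 passed the filter only through the s-shaped body arrays; with no filter 23 of the 29 rose and 0 fell, with a median of 1.47. Podxl, the charged coat protein podocalyxin, was 8.22 and 8.16 in renal vesicle replicates 1 and 2, 11.54 in replicate 3, and 14.41, 14.44 and 14.43 in the s-shaped bodies. Ptpro, a receptor tyrosine phosphatase of the podocyte, was 6.97, 7.26 and 10.65 and then 13.50, 13.59 and 13.58. Synpo, the actin-binding protein synaptopodin, was 6.73, 6.82 and 8.68 and then 12.69, 12.43 and 12.58. In all of them the 3 s-shaped body pools lay together and replicate 3 of the renal vesicle lay between the stages. As printed, the rises were 34.8-fold, 38.3-fold and 35.7-fold, and without that replicate their log2 differences grew from 5.12 to 6.24, from 5.26 to 6.44 and from 5.16 to 5.79. The dimmer probe sets of Podxl and Ptpro rose by 3.13 and 1.73. In bulk samples fewer cells of a type and less RNA per cell cannot be told apart.

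Further podocyte genes moved with these. Nphs1, which encodes the slit diaphragm protein nephrin, was 6.41, 6.50 and 7.52 and then 10.39, 10.34 and 10.08, a rise of 11-fold (SE 0.27 on the log2 scale, adjusted p = 1.93e-06). Rhpn1, a cytoskeletal regulator of podocytes, differed in that replicate 3 was not raised: it stood at 5.09, 5.08 and 5.05, close to the lowest level, and then at 9.01, 8.92 and 8.98. The peptidase genes Dpp4, Mme and Enpep rose by 3.63, 2.65 and 2.38, the intermediate filament genes Vim and Nes by 2.47 and 1.89, and the junction scaffold Tjp1 by 1.83. Cd2ap, which links the slit diaphragm to actin, rose by 0.94 (SE 0.22). For the 22 genes that differed over 2-fold without it, renal vesicle replicate 3 had a median position of 0.28, with a range of -0.02 to 0.55.

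Transcription factors of podocytes rose by less than Podxl, Ptpro and Synpo did. Of 10 on the array 6 were tested, and 5 of these rose and 1 fell, with a median of 1.18, or 1.46 without renal vesicle replicate 3. With no filter 5 of the 10 rose and 1 fell, with a median of 0.46. Wt1, the zinc finger factor that podocytes require, was 11.08, 10.67 and 11.84 and then 12.47, 12.18 and 12.37, a rise of 2.21-fold (adjusted p = 0.00818). Tcf21, a basic helix-loop-helix factor, rose 8.25-fold from 8.70, 8.58 and 10.08 to 12.02, 12.27 and 12.19. Foxd1 rose by 2.78, Foxc1 by 1.21 and Foxc2 by 0.73 (adjusted p = 0.0125). Foxd1 and Tcf21 are also known from the stroma and stand in the interstitium list as well. Hey1, a Notch target, was the member that fell. On this list renal vesicle replicate 3 lay at a median position of 0.49 over 4 genes (0.41 to 0.66).

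Matrix genes rose in most cases. Of 27 tested genes of the glomerular basement membrane and matrix, 17 rose and 6 fell, with a median of 1.02. The laminin genes split: Lama5 and Lamb2, chains of the mature glomerular laminin, rose by 1.49 and 0.81, whereas Lama1, the alpha chain of early nephron laminin, fell by 3.10. Lama1 went from 9.74, 10.23 and 10.47 to 6.94, 6.97 and 7.22. Lamb1, the beta chain of early laminin, fell by 0.41 with all arrays and did not pass without renal vesicle replicate 3, and the same held for Hspg2. Col4a1 and Col4a2, the broadly expressed collagen IV chains, rose by 0.91 and 1.74 and Col4a5 by 1.47, and Col4a3 did not pass at 0.30. Nid1, the linker protein nidogen, rose 6.44-fold and Col18a1 4.52-fold. Col1a2, a fibrillar collagen chain of stroma, rose 24.7-fold, more than any other member. Vcan, the proteoglycan versican, fell 5.69-fold, and its 3 probe sets ranged from -2.51 to -1.03 on the log2 scale.

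**Figure D3:**
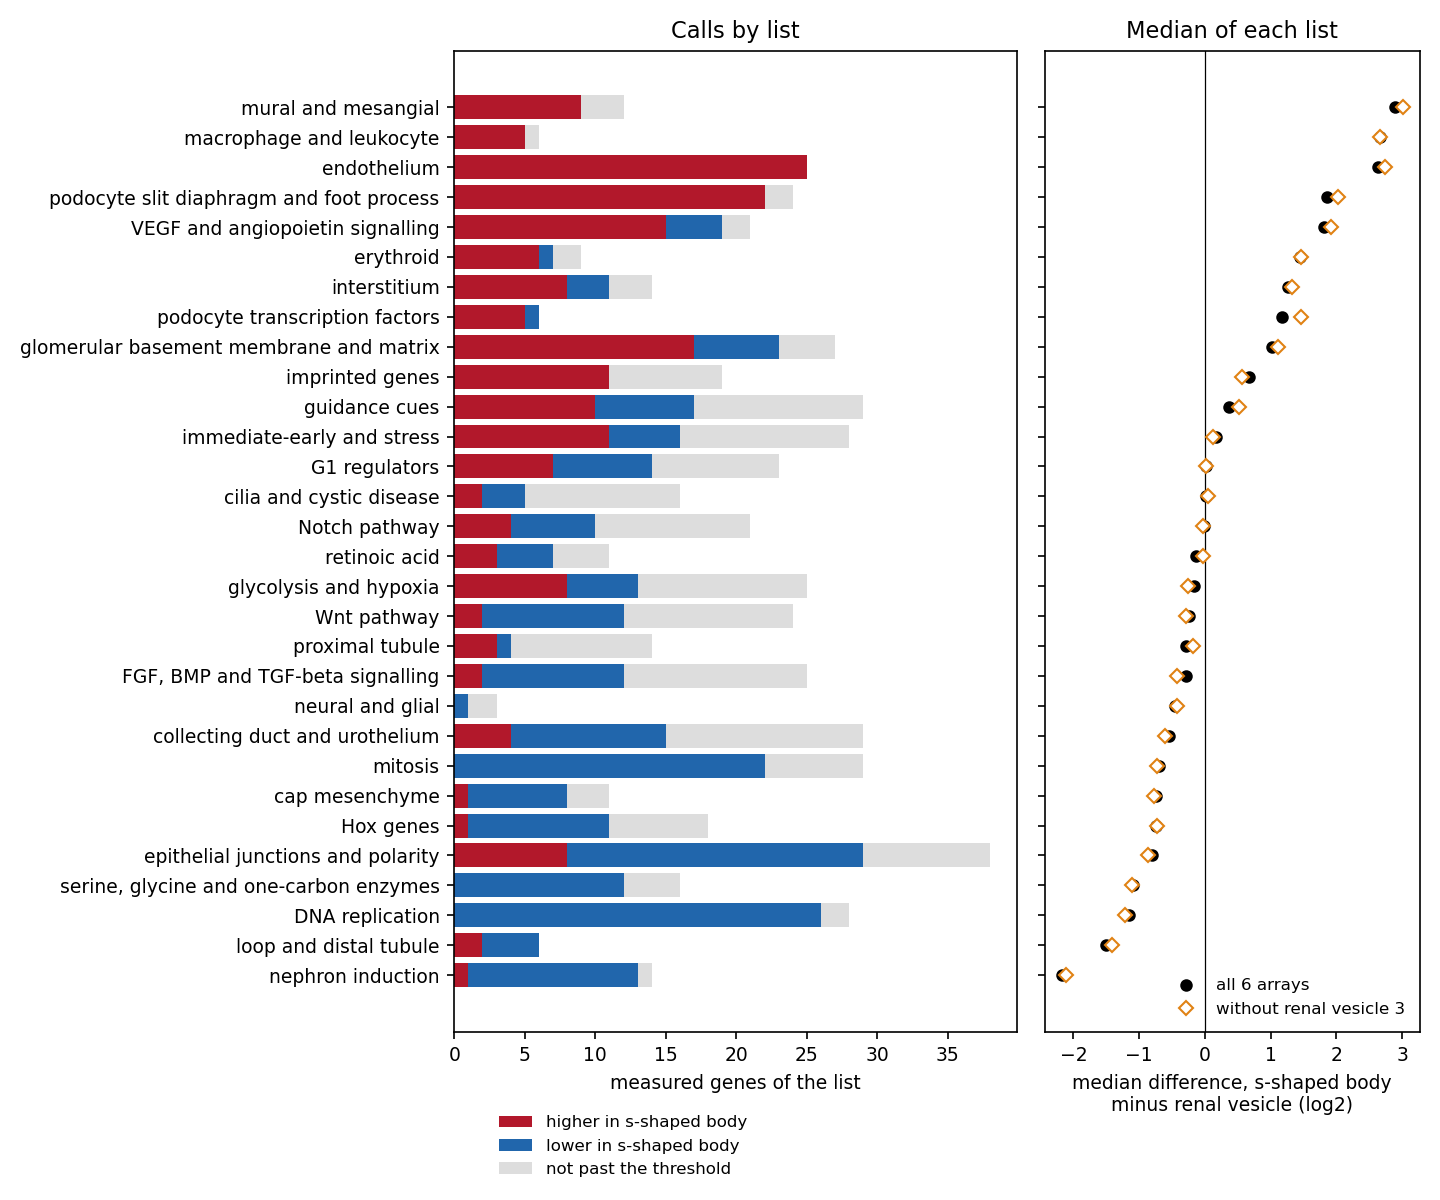
Measured genes of each of 30 lists that rose (red), fell (blue) or did not pass the threshold (grey), as bar lengths in genes, with the median log2 difference of each list at right for all 6 arrays (black) and without renal vesicle replicate 3 (open diamonds). Of genes tested, 25 of 25 endothelial and 22 of 24 podocyte surface genes rose, of which 19 and 4 passed the filter only through the s-shaped body arrays, 26 of 28 DNA replication genes fell, and the 2 medians of a list lie on the same side of 0 in every list.

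Genes of the endothelium were higher in the s-shaped body. Of 30 genes, 29 had a probe set of their own and 25 were tested. All 25 rose, with a median of 2.64, but 19 of them, Sox17, Icam2 and Plvap included, passed the filter only through the s-shaped body arrays, which favours genes higher there. With no filter 28 of the 29 rose, with a median of 2.58. Erg, an endothelial transcription factor below the filter, was listed at 5.14 to 5.24 and then at 5.22 to 5.63. Sox17, a transcription factor of arterial endothelium, was 6.24, 6.86 and 5.97 and then 12.78, 12.53 and 12.43, a 74.5-fold rise (SE 0.23 on the log2 scale, adjusted p = 2.56e-08). Its dimmer probe set rose by 1.53. Kdr, the main VEGF receptor, was 7.17, 7.34 and 6.90 and then 11.36, 11.13 and 11.45, an 18-fold rise. Icam2, an adhesion molecule of endothelium, rose 45.7-fold and Plvap, which forms the diaphragms of fenestrae, 25.6-fold. Sox17 and Icam2 lay below the median probe set in every renal vesicle pool, and replicate 3 was the lowest of the 3 for Sox17, Icam2 and Kdr. For this list replicate 3 lay at a median position of -0.01 over 25 genes, against 0.28 for the podocyte surface genes. Pecam1, below the filter, was listed at 6.14 to 6.25 and then at 7.01 to 7.31. Summed over 29 marker genes, deposited intensity was 6434, 6938 and 12208 in the renal vesicle and 43718 to 48922 in the s-shaped body. Cldn5, which podocytes also express, was 12.05, 12 and 13.11 in the 3 renal vesicle pools, and so moved with the higher sum of replicate 3.

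Several of the 12 largest rises were of genes outside the lists that are known from vessels. Gimap4, a small GTPase of lymphocytes and endothelium, rose 83.8-fold and Tm4sf1, a membrane protein of endothelial cells, 75.9-fold. Aplnr, the apelin receptor, rose 31.7-fold, or 19.6-fold without renal vesicle replicate 3, and its probe sets ranged from 1.91 to 4.99. Cd93 rose 30.4-fold, Mef2c, a muscle and endothelial transcription factor, 39.2-fold, and Igfbp3, which binds insulin-like growth factors, 45.7-fold. The 3 probe sets of Mef2c ranged from 2.13 to 5.29 on the log2 scale, and the 2 of Gimap4 from 4.61 to 6.39. Cd248, a marker of pericytes and stromal cells, rose 28.2-fold.

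In the VEGF and angiopoietin list 15 of 21 tested genes rose and 4 fell (2 without renal vesicle replicate 2), with a median of 1.82. Of the 21, 10 passed the filter only through the s-shaped body arrays; with no filter 18 of 26 rose and 4 fell. The ligand Vegfa, which podocytes make to draw endothelium in, was 9.40, 9.75 and 9.58 and then 11.56, 11.46 and 11.56, a rise of 3.87-fold (adjusted p = 7.73e-06). Its 2 probe sets ranged from 0.94 to 1.95 on the log2 scale. The receptor genes Flt1, Flt4 and Tek rose by 3.74, 2.29 and 1.36, and the co-receptor Nrp1 by 1.92. Pdgfrb, the receptor that brings mesangial cells in, rose 14.9-fold from 7.01, 7.88 and 8.54 to 11.65, 11.53 and 11.94, and its ligand gene Pdgfb, made by endothelium, rose by 2.25. Pdgfa, the ligand of the related receptor, fell 5.15-fold from 10.82 in each renal vesicle pool to 8.26 to 8.59. Its 2 probe sets ranged from -2.36 to -1.19 on the log2 scale. Cxcl12, a chemokine that podocytes secrete toward vessels, rose 15.8-fold.

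Markers of mural and mesangial cells rose in 9 of 12 tested cases, with a median of 2.89, and Des, Cspg4 and Notch3 did not pass. Of the 12, 6 passed the filter only through the s-shaped body arrays; with no filter 10 of 15 rose and 0 fell, with a median of 1.86. Rgs5, a pericyte marker, was 6.87, 7.19 and 6.78 and then 10.95, 11.09 and 11.28. Its 3 probe sets ranged from 0.21 to 4.16. Kcnj8 and Abcc9, subunits of a pericyte potassium channel, rose by 4.04 and 3.05, and Acta2, smooth muscle actin, by 3.0. In the interstitium list 8 of 14 tested genes rose and 3 fell, and with no filter 9 of 24 rose and 1 fell. Postn and Pdgfra rose by 3.98 and 3.99, and Nr2f1 and Meis1, both stromal transcription factors, did not pass at -0.04 and 0.06. Summed intensity was 1790 to 2351 and then 14310 to 15653 for the mural list, and 6172 to 8539 and then 29022 to 34390 for the interstitial list.

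Some blood cell markers were higher as well. In the erythroid list 6 of 9 tested genes rose and 1 fell, but 5 of the 9 passed the filter only through the s-shaped body arrays; with no filter 6 of 16 rose and 1 fell. In the macrophage and leukocyte list 17 of 23 genes were below the filter. Of the 6 tested 5 rose, 2 of which passed it only through the s-shaped body arrays. With no filter 7 of the 23 rose, 15 did not pass and 1 fell, with a median of 0.29. The gene that fell was Ptprc, the surface phosphatase CD45 of leukocytes, at 8.08, 8.10 and 7.05 and then 6.94, 6.6 and 6.42. Cd68, Cx3cr1, Trem2, Itgam and Cybb did not pass, at -0.04, -0.02, -0.05, -0.19 and -0.22. Hbb-y, an embryonic globin, was 10.48, 11.26 and 8.40 and then 14.36, 14.23 and 14.21, and its rise of 4.22 (adjusted p = 0.0254) did not pass without renal vesicle replicate 3 (3.40, adjusted p = 0.0896). The SEs of these differences, 1.32 and 1.44, take in the collecting duct arrays, where Hbb-y was 4.78, 11.2 and 4.93. Slc4a1, the red cell anion exchanger, rose by 4.27 (its 2 probe sets ranged from 2.29 to 4.27), and Tfrc, the transferrin receptor of dividing cells, fell by 1.66. Csf1r and Laptm5, genes of macrophages and leukocytes, rose by 3.42 and 3.90, and by 1.41 and 0.82 with their dimmer probe sets. Summed intensity was 4975 to 7526 against 23480 to 25979 for erythroid and 1177 to 1717 against 5617 to 6806 for macrophage markers. A sum is weighted to bright members, and Hbb-y made up most of the erythroid sum in the s-shaped bodies. Csf1r and Laptm5 together made up most of the macrophage sum there. Laptm5 was also 9.25, 9.33 and 10.31 in the collecting duct arrays. No marker was at 0 in either stage. The part of these cells in the other results was not tested. Neural markers summed to 762 to 1025 and 996 to 1144, and of 3 tested 1 passed, Dcx, at -0.64. It did not pass without renal vesicle replicate 3 (-0.55, adjusted p = 0.107) nor without any one of renal vesicle replicates 1 and 2 and s-shaped body replicates 2 and 3.

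Genes of epithelial junctions and polarity fell in 21 of 38 tested cases and rose in 8, with a median of -0.80. Of the 38, 12 passed the filter only through the collecting duct arrays; with the filter on the 6 arrays compared 14 of 27 fell and 8 rose. Cdh1, the adhesion molecule E-cadherin, was 9.65, 10.16 and 9.61 and then 6.71, 5.96 and 5.85, a 12.4-fold fall (adjusted p = 5.9e-07). Epcam, another epithelial adhesion molecule, fell 12.7-fold from 9.72, 10.05 and 9.05 to 6.14, 6.31 and 5.36, and the desmosomal cadherin Dsg2 8.33-fold. The 2 probe sets of Dsg2 ranged from -3.06 to -1.91 on the log2 scale. All s-shaped body levels of Cdh1 and Epcam lay below the median probe set. Cdh2 and Cdh6, cadherins of the proximal nephron, also fell, by 1.58 and 1.08, whereas Cdh4 rose by 0.53 but did not pass without renal vesicle replicate 3. Krt7, Tjp1 and Cldn5 were the largest rises at 2.98, 1.83 and 1.64.

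Of 29 tested genes of the collecting duct and urothelium 11 fell and 4 rose, with a median of -0.55. Of the 29, 16 passed the filter only through the collecting duct arrays; with the filter on the 6 arrays compared 14 were tested, 6 fell and 3 rose, with a median of -0.10. Of the lists with at least 5 genes measured for it, renal vesicle replicate 3 lay nearest to the s-shaped body here. Calb1, the calcium-binding protein calbindin of the ureteric bud and distal tubule, was 12.60 and 13.18 in replicates 1 and 2, 8.58 in replicate 3, and 7.25, 7.23 and 7.09 in the s-shaped bodies. Its difference of -4.26 (SE 0.85) became -5.70 without that array. Cldn8, a claudin of the distal nephron and duct, was 8.76, 9.43 and 5.37 and then 5.23, 5.65 and 5.67, so the groups overlapped. Its difference was -2.34 (adjusted p = 0.027) and became -3.58 without replicate 3. Esrp1, an epithelial splicing regulator, was 8.86, 9.53 and 5.10 and then 5.03, 5.47 and 4.99, a difference of -2.67 that became -4.03 without replicate 3. For Cldn8 and Esrp1, replicate 3 lay at the s-shaped body level. Over 15 genes of the list its median position was 0.51, and summed intensity was 12989, 18012 and 4556 in the renal vesicle against 5046 to 5529 for the s-shaped body pools. In the collecting duct itself it was 81034 to 95137. A sum is weighted to bright members, and Calb1 made up a large part of it in renal vesicle replicates 1 and 2. In the collecting duct arrays Calb1 was only 6.38, 6.49 and 6.44, so the high duct sum does not come from this gene. The water channel Aqp2 and the ureteric bud gene Hoxb7 did not pass, at 0.12 and 0.14.

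**Figure D4:**
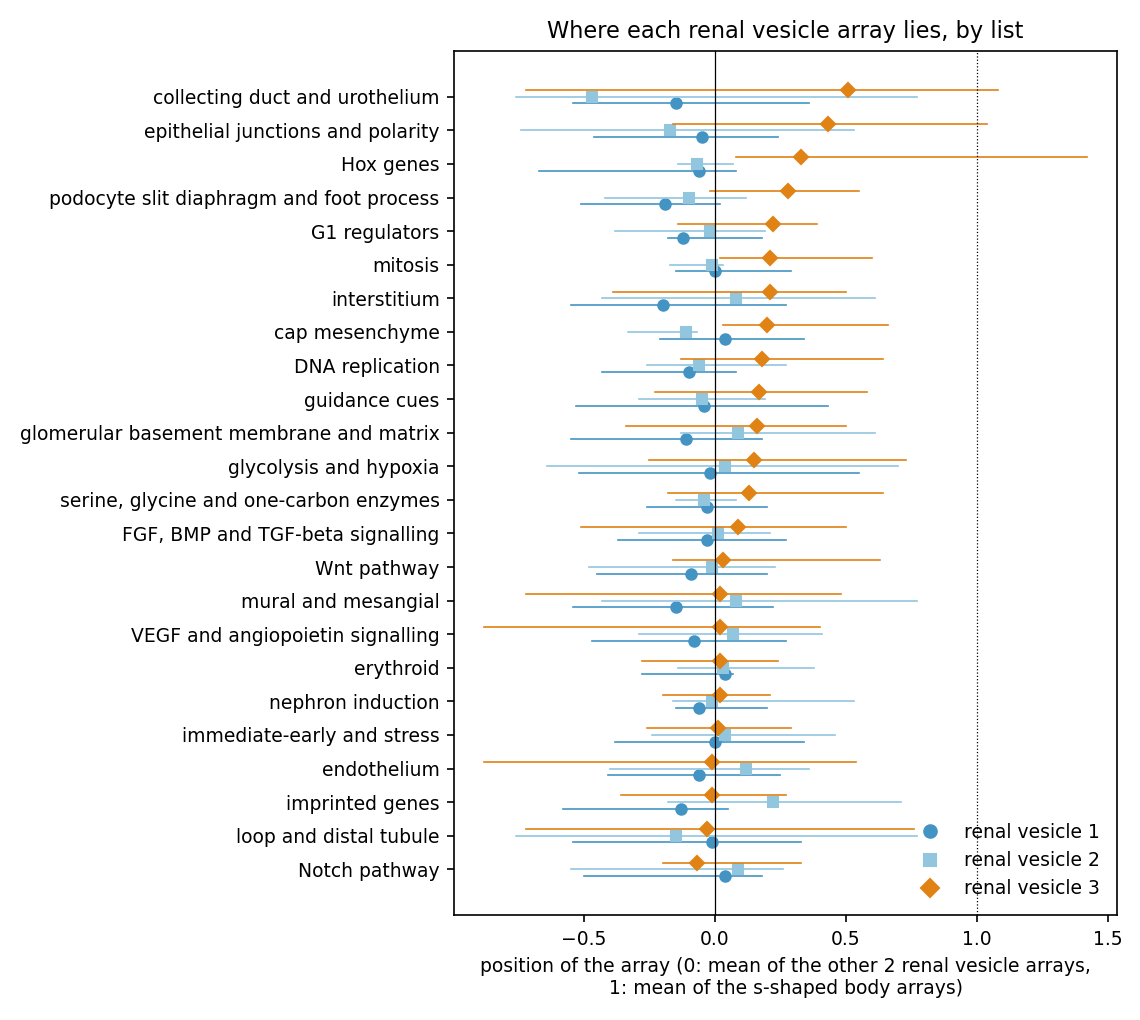
Position of each renal vesicle array between the mean of the other 2 renal vesicle arrays (0) and the mean of the s-shaped body arrays (1), as the median (symbol) and range (line) over the genes of a list that differed over 2-fold in a fit without that array, for lists with at least 5 such genes. Replicate 3 (orange) lies at 0.51 for collecting duct and 0.28 for podocyte surface genes but at 0.02 for nephron induction and -0.01 for endothelium. The 0 point of replicates 1 and 2 includes replicate 3, so it differs between arrays.

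Tubule genes rose in some cases and fell in others. Of 14 tested proximal tubule genes 3 rose, 1 fell (4 without s-shaped body replicate 1) and 10 did not pass. The share that passed was 28.6%, against 36.3% of all genes. Of the 3 rises, 2 passed the filter only through the s-shaped body arrays, and the 1 fall only through the renal vesicle arrays. With no filter 6 of 23 rose and 1 fell, which is 30.4% against 23.9% of all genes. Hnf4a, a nuclear receptor of the proximal tubule, was 8.73, 9.0 and 9.67 and then 8.93, 7.68 and 8.04, and did not pass (adjusted p = 0.102). Lrp2, the endocytic receptor megalin, was level at 0.19 (adjusted p = 0.48). Slc7a9, an amino acid transporter subunit, Dab2, an endocytic adaptor, and Aqp1, a water channel, rose by 2.00, 1.85 and 1.41. The 2 probe sets of Dab2 ranged from 0.84 to 1.85. Of 6 tested genes of the loop and distal tubule 4 fell and 2 rose. Of the 4 falls, 2 passed the filter only through the renal vesicle arrays. With no filter 7 of 19 fell and 2 rose, which is 47.4% against 23.9% of all genes. Besides Calb1, the 4 falls with the filter were of Sim1 (-3.99), Irx3 (-1.75) and Irx1 (-1.25), all transcription factors. Irx1 did not pass without renal vesicle replicate 3. The other probe set of Sim1 gave -0.45. Egf, a growth factor of the distal tubule, rose 5.47-fold.

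Genes of DNA replication fell nearly as one list. Of 32 genes 28 were tested, of which 26 fell and 2 did not pass, with a median of -1.15, and the counts were the same without renal vesicle replicate 3. Mcm2 and E2f1 did not pass at 0.31 and -0.07. Rrm2, a subunit of the enzyme that makes deoxynucleotides, was 13.60, 13.62 and 13.77 and then 12.37, 12.38 and 12.32, a 2.47-fold fall (adjusted p = 3.94e-06). Gins1, Rfc3 and Pole, parts of the replication fork, fell by 2.15, 2.11 and 1.96. Mcm7, a subunit of the replicative helicase, was 13.59, 13.50 and 13.59 and then 12.24, 12.51 and 12.56, and fell 2.18-fold. Cdc6, which loads the helicase, fell by 1.29. Mitosis genes fell by less: 22 of 29 tested genes fell, 7 did not pass, and the median was -0.70. This count rests more on single arrays than that of DNA replication: without renal vesicle replicate 1 or 2 it was 14 and 11, against 25 and 25. Mad2l1, of the spindle checkpoint, fell 2.39-fold and the kinesins Kif20a and Kif11 by 1.09 and 1.03. Cdk1 and Foxm1 did not pass at -0.26 and -0.06.

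The promoters of these lists were searched for the letters of known cell cycle motifs, on both strands of the 300 bases. The E2F motif (TTTCCCGC, TTTGGCGC, TTTCGCGC or TTTGCCGC) stood in 9 of 24 DNA replication promoters (37.5%) and in 4.37% of all. The CHR motif (TTTGAA) stood in 19 of 24 mitosis promoters (79.2%) and in 11.6% of all, and CCAAT in 19 of the 24 and in 38.4% of all. Among genes that fell, 6.92% held the E2F motif and 15.5% the CHR motif, and among those that rose 2.99% and 8.9%. The motifs share runs of letters, TTTG in the CHR motif and 2 of the E2F motifs and TTCCC in TTTCCCGC and TTCCCA, the reverse complement of TGGGAA. The 250 bases before the start of Mcm7 (chr5:138171884-138172133, minus strand), Cdc6 (chr11:98907901-98908150, plus strand) and Kif11 (chr19:37376132-37376381, plus strand) are shown from RefSeq on GRCm38.p6, because each holds its list's motif. Capitals mark the E2F motif in Mcm7 and Cdc6, and in Kif11 the CCAAT box followed by the CHR motif, each as its reverse complement.
Mcm7: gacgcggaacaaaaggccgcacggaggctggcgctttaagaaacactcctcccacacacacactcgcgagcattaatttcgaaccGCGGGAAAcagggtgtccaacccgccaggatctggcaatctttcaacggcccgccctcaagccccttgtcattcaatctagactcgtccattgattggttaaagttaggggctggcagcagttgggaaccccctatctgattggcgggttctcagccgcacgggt
Cdc6: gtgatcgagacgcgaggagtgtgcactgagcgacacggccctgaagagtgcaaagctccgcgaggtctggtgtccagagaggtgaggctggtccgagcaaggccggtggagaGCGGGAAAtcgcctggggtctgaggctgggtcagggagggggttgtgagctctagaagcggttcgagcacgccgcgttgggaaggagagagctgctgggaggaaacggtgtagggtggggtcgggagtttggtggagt
Kif11: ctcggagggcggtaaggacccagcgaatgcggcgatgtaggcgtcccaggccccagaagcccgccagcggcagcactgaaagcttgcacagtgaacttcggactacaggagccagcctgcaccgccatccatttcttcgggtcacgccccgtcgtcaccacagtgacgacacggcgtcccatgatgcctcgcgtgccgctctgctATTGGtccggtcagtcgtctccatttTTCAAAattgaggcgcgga
The E2F motif starts 165 bases before the transcript in Mcm7 and 138 in Cdc6, and in Kif11 the CCAAT box starts 45 and the CHR motif 19 bases before it.

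Regulators of the G1 phase split between 7 rises and 7 falls of 23 tested genes. Cdkn1c, the cyclin-dependent kinase inhibitor p57, was 9.47, 9.33 and 10.76 and then 14.31, 14.51 and 14.31, a 23-fold rise (SE 0.30 on the log2 scale, adjusted p = 5.92e-07). It is known from the podocyte layer and also stands in the podocyte and imprinted lists. Gadd45a, a growth arrest gene, rose 7.87-fold and Cdkn2c, an inhibitor of Cdk4, 2.4-fold. Mycn, the Myc gene of nephron progenitors, was 11.88, 11.63 and 11.53 and then 9.47, 9.08 and 9.41, a 5.13-fold fall. Ccnd1, a D-type cyclin, fell 3.62-fold and Cdk4 by 1.02. Cdkn1a, Cdkn1b and Myc did not pass, at -0.32, 0.02 and -0.25. Imprinted genes rose in 11 of 19 tested cases and did not pass in 8, with a median of 0.67, but 7 rose without renal vesicle replicate 1. Plagl1, Meg3 and Mest rose by 1.70, 1.73 and 1.33 (the 4 probe sets of Meg3 ranged from 0.14 to 2.23), and Igf2, the growth factor of this list, was level at 12.24 to 12.32 and 12.25 to 12.39.

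Enzymes of serine, glycine and one-carbon metabolism fell in 12 of 16 tested cases and did not pass in 4, with a median of -1.09. Gldc, which cleaves glycine, was 9.96, 9.82 and 9.91 and then 5.79, 5.04 and 5.60, a 21.4-fold fall (SE 0.22 on the log2 scale, adjusted p = 1.53e-07). Cth, which makes cysteine, fell 9.66-fold, and Shmt1, Psat1 and Phgdh, which make or use serine, fell by 1.68, 1.18 and 1.08. Shmt2, the mitochondrial partner of Shmt1, did not pass at -0.18. Of 14 promoters of this list 12 held CCAAT (85.7%) and 0 held the E2F motif.

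Hypoxia, stress and retinoic acid genes moved in both directions. Of 25 glycolysis and hypoxia genes 8 rose and 5 fell, but 5 rose without renal vesicle replicate 1 or s-shaped body replicate 2, and 3 fell without renal vesicle replicate 2 or s-shaped body replicate 3. Egln3, an oxygen-sensing hydroxylase, rose 11.7-fold, from 7.22, 7.84 and 7.69 to 11.05, 11.14 and 11.19, and Epas1, an oxygen-regulated factor of endothelium, 4.2-fold, whereas the hexokinase Hk2 fell 3.04-fold. The 2 probe sets of Egln3 ranged from 2.46 to 3.54 on the log2 scale. Of 28 immediate-early and stress genes 11 rose and 5 fell (3 without renal vesicle replicate 3 or s-shaped body replicate 2), among them Sgk1, a salt-regulated kinase, at 3.46, and the heat shock genes Hspa1a at 3.16 and Hsph1 at -1.07. Fos, Jun and Egr1 did not pass, at -0.52, -0.47 and -0.36. Of 11 retinoic acid genes 3 rose and 4 fell. Aldh1a1, which makes retinoic acid, rose 7.2-fold, or 4.64-fold without renal vesicle replicate 3, and Aldh1a2 and Rdh10, of the same route, fell by 0.95 and 1.38.

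Guidance and cilia genes closed the comparison. Of 29 guidance genes 10 rose and 7 fell (4 without renal vesicle replicate 2). Of the 10 rises, 2 passed the filter only through the s-shaped body arrays. Of the 7 falls, 2 passed it only through the renal vesicle arrays. With no filter 10 of 37 rose and 9 fell. Epha7 and Slit2 fell 7.92-fold and 4.54-fold, and Unc5b and Efnb2, both receptors or ligands of vessels, rose 3.54-fold and 3.53-fold. Sema3e, a repellent of endothelium, rose by 2.37. Of 16 cilia and cystic disease genes 3 fell and 2 rose, which is 31.2% against 36.3% of all genes, and 0 rose without renal vesicle replicate 1 or 2. Pkhd1, the gene of recessive polycystic disease, fell by 1.66 with overlapping arrays (7.20, 7.89 and 6.31, then 6.38, 5.14 and 4.91), and Cys1 fell by 1.64.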

How the data were processed

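Levels were measured in 9 samples, 1 per Affymetrix MOE430A array, and grouped by their titles. The deposited table gives each probe set 1 linear intensity on every array. It was made with GCOS, software of the array's maker, per the submitters' processing notes, which state neither version nor algorithm. Array means without the top and bottom 2% of values were 499.9 on every array, so the authors had scaled them to a common mean. No aligner or genome build applies to these arrays, and RefSeq on GRCm38.p6 was used for names and promoters only. Arrays give no counts, so their number limits the precision.

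Of 22690 probe sets, 64 were controls, 20380 had 1 gene symbol in a platform annotation, 691 several and 1555 none. After adding 26, which is percentile 20 of the table, values were put on the log2 scale and quantile normalized. Probe sets above their array's median on at least 3 arrays were kept (11597), and the set of highest mean over the arrays stood for its gene, which left 7998 of 12393 genes. The pseudocount understates the folds of dim genes. A model of all 9 arrays (limma 3.58.1 in R 4.3.3, lmFit and eBayes with trend, 6 residual degrees of freedom) gave two-sided p-values, adjusted by Benjamini-Hochberg over all genes. The procedure was tested on simulated data.

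The comparison, the 30 gene lists (textbook genes, some in several lists) and the rules were chosen with earlier results of these data known, so list counts are descriptions. Genes named were the 12 largest rises and 12 largest falls among changed genes with separate groups, as many as 5 members per list by smallest adjusted p, a set of anchor genes and markers of other cells; other list members are named for contrast, after their values were seen. Some anchors are not reported here. Alternatives were other pseudocounts, normalizations, filters, probe set choices and fits, a 2-fold minimum, the replicate block and leaving out each array. Promoter motifs were matched by exact letters.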

Additional observations from a re-analysis of the deposited data

How the results depend on the processing

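Under 23 alternatives the count of changed genes stayed within 1.5 times of 2905, except with a 2-fold minimum built into the test, which left 449 (325 higher, 124 lower). Leaving out each array in turn gave 2221 to 3395, and a fit of only the 6 arrays compared gave 3338. Shared replicate numbers were not taken to pair the samples. Deviations of same-numbered samples correlated at -0.03, -0.03 and 0.12, and renal vesicle replicate 1 correlated best with s-shaped body replicate 2 (0.15). So few values cannot exclude a pairing. With the replicate block 2997 genes passed (1513 higher, 1484 lower). The share of rises among changed genes was 51% in the main fit, 43.6% with each array centred on its median (where the median difference of all genes was -0.11) and 56% with no further normalization. Of 210 named genes, 182 passed, and 114 kept their direction and their side of the threshold under each of the 23 alternatives. Lyz1 reversed with no filter (-0.22, adjusted p = 0.663), because another probe set then stood for it. Sim1 did not pass with a pseudocount of 8 (-0.51, adjusted p = 0.13), again through another probe set. After the data were examined, median centring without renal vesicle replicate 3 (1268 higher, 1631 lower) and a fit of the other 5 arrays alone (1755 and 1768) were added. Probe sets of one gene called in opposite directions were found for Cdc42, Notch2, Slc44a1 and Stau2. Genes near the dim end, such as Rhpn1, are limited by signal over background.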

Other observations

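Genes outside the lists that changed strongly are given here; they were chosen after their values were seen, and all passed the threshold (limma, Benjamini-Hochberg) with and without renal vesicle replicate 3. Among transcription regulators, Myb fell by 3.21, Sox11, a factor of embryonic progenitors, by 2.80, Tfap2c by 2.57 and Hmga2, a chromatin protein of fetal cells, by 2.28. Zeb1, a repressor of epithelial genes, rose by 2.85, Ebf1 by 3.69 and Bcl6b, known from endothelium, by 4.47. The growth factor genes Pdgfc and Mdk fell by 2.94 and 2.34. Car4 and Car14, carbonic anhydrases bound to the cell surface, fell by 2.47 and 2.25, and the transporter genes Slc16a1, for lactate, and Slc2a2, for glucose, by 2.77 and 2.19.

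Among genes that rose, the annexins Anxa1 and Anxa2 were higher by 4.31 and 3.46, and Timp3, an inhibitor of matrix proteases, by 3.52. Without renal vesicle replicate 3 Anxa1 was higher by 3.48 and Timp3 by 4.48. Cryab, a small heat shock protein, rose by 4.02, and by 4.94 without renal vesicle replicate 3. Fabp4 and Cd36, which bind and take up fatty acids, rose by 4.34 and 3.68, and Neat1, a long non-coding RNA, by 4.24. Rprm, a gene of cell cycle arrest, fell by 3.45, and by 5.06 without renal vesicle replicate 3, which lay at a position of 0.96 for it.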
